A study of Mus musculus with 21 samples.

Results

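Granzymes A, K and M are serine proteases of cytotoxic lymphocytes, and their genes Gzma, Gzmk and Gzmm were followed here through 21 single-cell RNA libraries of mouse CD8 T cells. The 3 genes were taken by symbol from the 17516 gene symbols of the count tables, and all 3 were listed in all 21 libraries. The cells were OT1 T cells, which carry a transgenic T cell receptor for a peptide of ovalbumin. A naive library was taken on day 0, before culture. The other cells were activated with beads coated with antibodies to CD3 and CD28, and IL-2, IL-15 or IL-2v was added at a dose of 5 or 50 IU/mL, giving 18 libraries from days 3, 5 and 10. IL-2v is an IL-2 mutant, named IL-2bg in the labels, and the study compared it with wild-type IL-2 and IL-15. The remaining 2 libraries were activated without added cytokine and sampled on days 3 and 5. The OT1 cells of all groups thus share 1 transgenic receptor, and all cultures had the bead stimulus, which is not the peptide the receptor recognises. The treatment labels of 6 libraries name other cytokines than their titles (3 titled as 50 IU/mL IL-2 and 3 titled as 50 IU/mL IL-15), and the titles were followed. The labels give no age or number of animals.

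Granzymes are stored in cytolytic granules and enter target cells through pores made by perforin. Granzymes A and K cut proteins after basic residues, granzyme M cuts preferentially after methionine, and granzyme B, the best known member, cuts after aspartate and starts apoptosis. IL-2 and IL-15 signal through shared beta and gamma receptor chains and activate STAT5, and IL-2 given to activated CD8 T cells is known for driving the cytotoxic programme. The T-box factors Eomes and T-bet and the RUNX factors are known regulators of cytotoxic genes in these cells.

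The submitters' processing notes name the mm10 build, and RefSeq positions of the same assembly (GRCm38) place Gzma at chr13:113093824-113100981 and Gzmk at chr13:113171630-113180965. Both lie on the minus strand with 70648 bases between them, a stretch that holds the gene 1700084D21Rik. Gzmm lies on another chromosome, at chr10:79689020-79695261 on the plus strand. The main GENCODE transcript of each gene has 5 exons. No exonic base of the 3 genes is shared with another GENCODE gene, and none of their 50-base transcript stretches occurs in a transcript of another gene. The longest Gzmk transcript in GENCODE reaches to position 113225908 and passes over the positions of Esm1, which had at most 4.03 CPM (UMIs of a gene scaled by the library total) in any library. The span of Cdc20b (chr13:113034975-113121019) covers all of Gzma, and Cdc20b had at most 0.257 CPM in any library.

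The 250 bases before the RefSeq start of each gene (RefSeq windows, build GRCm38.p6) are shown because these are the genes whose levels are compared below. Capitals mark matches to any of 3 short motifs searched on both strands, namely TTCNNNGAA for STAT factors, GGTGTGA for T-box factors and TGTGGTT for RUNX factors. The Gzma window (chr13:113100982-113101231, minus strand), the Gzmk window (chr13:113180966-113181215, minus strand) and the Gzmm window (chr10:79688770-79689019, plus strand) read 5′ to 3′ as follows.
Gzma: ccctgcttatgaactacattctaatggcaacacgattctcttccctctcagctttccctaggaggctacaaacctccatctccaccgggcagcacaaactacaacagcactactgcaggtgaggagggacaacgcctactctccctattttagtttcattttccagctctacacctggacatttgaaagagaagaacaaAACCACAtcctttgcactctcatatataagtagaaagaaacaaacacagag
Gzmk: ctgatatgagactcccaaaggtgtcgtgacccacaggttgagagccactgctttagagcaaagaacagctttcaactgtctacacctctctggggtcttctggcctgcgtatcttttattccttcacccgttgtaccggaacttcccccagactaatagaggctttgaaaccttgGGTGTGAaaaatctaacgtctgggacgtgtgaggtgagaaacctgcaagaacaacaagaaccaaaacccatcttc
Gzmm: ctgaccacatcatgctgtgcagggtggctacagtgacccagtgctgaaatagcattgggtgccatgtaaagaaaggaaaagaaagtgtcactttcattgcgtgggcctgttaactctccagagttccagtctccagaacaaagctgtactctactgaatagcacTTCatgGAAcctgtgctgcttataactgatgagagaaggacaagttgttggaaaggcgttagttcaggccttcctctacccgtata
The Gzma window held the RUNX letters on the reverse strand, beginning 51 bases before the start. The Gzmk window held the T-box letters 75 bases before the start, and the Gzmm window held the STAT letters 86 bases before it. RefSeq gives Gzmm another start further downstream, and its window held the T-box letters 189 bases before that start. Of 32817 windows of 250 bases, 7.01% held the STAT letters, 3.33% the T-box letters and 4.39% the RUNX letters. A match is a description of the letters only.

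The tables held counts of unique molecular identifiers (UMIs, tags that mark single captured RNA molecules). Between 3250 and 7105 cells per library were kept, with 10589950 to 32648496 UMIs in total and a median of 3016 to 5065 UMIs per cell. Any pair of libraries shared at most 19 cell barcodes. T cell and CD8 markers were present in every library: Cd3e was at 316 to 777 CPM, lowest under 50 IU/mL IL-2v on day 10, and Cd8b1 at 174 to 1144 CPM, lowest under 50 IU/mL IL-2 on day 10. Each condition had 1 library, so no condition was replicated, no test was run, and differences between conditions cannot be told apart from differences between cultures. Levels are CPM with exact Poisson 95% intervals, and shares of cells are exact Clopper-Pearson 95% intervals after each cell was thinned to 2000 UMIs. These intervals cover counting error only. Those of levels and ratios treat each UMI as a separate count, although the UMIs of a gene can gather in few cells.

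Gzma spanned the widest range of CPM of the 3 genes, and its high levels were found on day 10 with IL-2 at either dose and with IL-2v at 50 IU/mL. With 50 IU/mL IL-2, Gzma stood at 11.9 CPM on day 3, 160.2 CPM on day 5 and 5352 CPM (95% interval 5325 to 5380) on day 10. With 5 IU/mL IL-2 it stood at 53.4, 55.2 and 1114 CPM on the same days, so the lower dose showed its increase between days 5 and 10 alone. IL-2v at 50 IU/mL gave 33.2, 41.0 and 475 CPM, while IL-2v at 5 IU/mL gave 32.0, 18.8 and 15.3 CPM. The 2 doses of IL-2v therefore started from overlapping levels and ended 31.1-fold apart (28.4 to 34.1). IL-15 gave 47.6, 22.1 and 8.62 CPM at 5 IU/mL and 35.1, 16.5 and 7.00 CPM at 50 IU/mL, a lower level at each later day. Naive cells held 32.5 CPM, and cells without cytokine held 59.7 CPM on day 3 and 20.99 CPM on day 5.

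**Figure D1:**
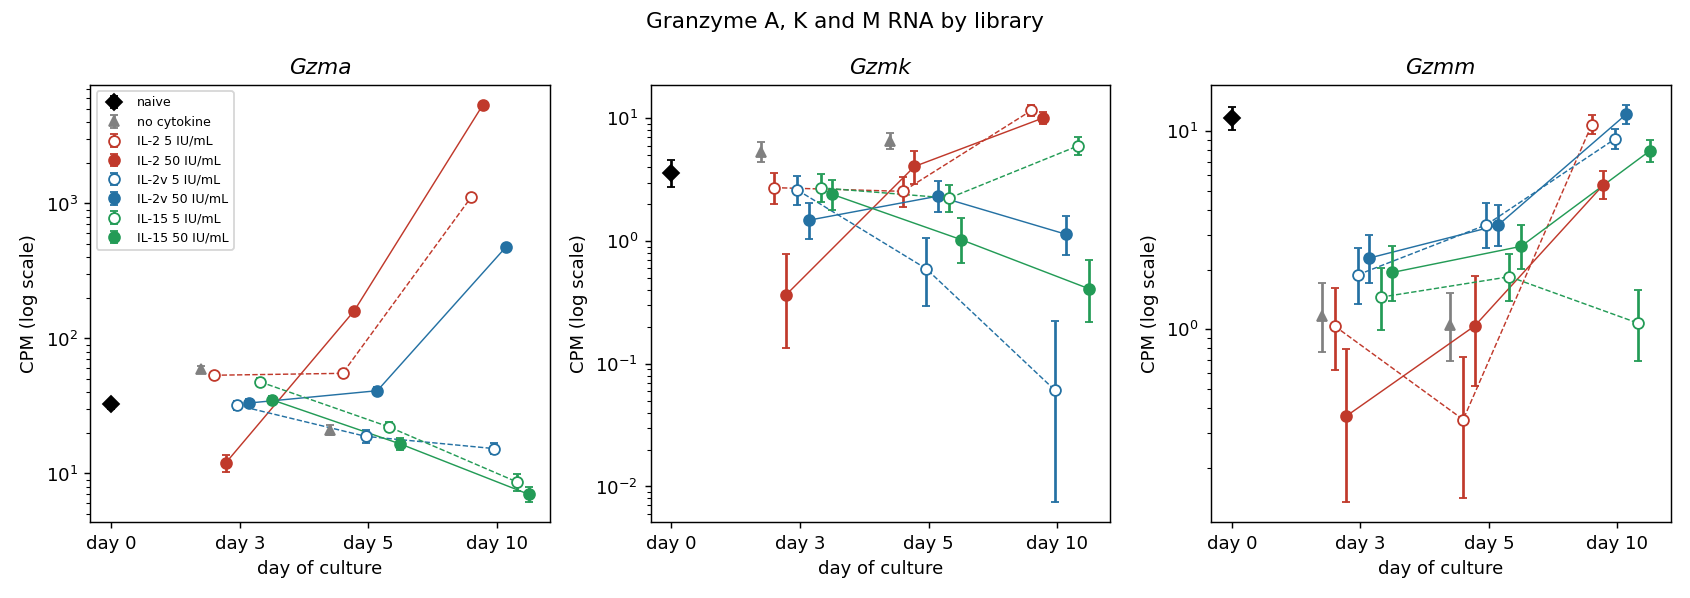
Level of Gzma, Gzmk and Gzmm in each of 21 libraries, as CPM on a log axis, by day of culture with the days evenly spaced; points are single libraries, joined within a cytokine and dose, bars are Poisson 95% intervals, colours are cytokines, open symbols 5 IU/mL and filled symbols 50 IU/mL. Gzma ends between 7.00 and 5352 CPM on day 10, Gzmk is highest in the 2 IL-2 libraries of day 10, and Gzmm is high in naive cells and in 5 of 6 libraries of day 10.

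In the order of levels, the 4 highest Gzma libraries (50 IU/mL IL-2 on day 10, 5 IU/mL IL-2 on day 10, 50 IU/mL IL-2v on day 10 and 50 IU/mL IL-2 on day 5) did not overlap each other or any other library. The next 4, no cytokine on day 3, 5 IU/mL IL-2 on days 5 and 3 and 5 IU/mL IL-15 on day 3, overlapped from one to the next. Naive cells overlapped their neighbours, the day 3 libraries of both IL-2v doses. The 2 IL-15 libraries of day 10 were lowest and overlapped each other. The range from lowest to highest was 765-fold, and cells of day 10 under 50 IU/mL IL-2 held 71.2% of the 205002 Gzma UMIs of the series.

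On day 10 the 3 libraries with the highest Gzma levels also had the highest shares of cells with Gzma, in the same order. Among libraries of low level the order of shares differed: naive cells had Gzma in 1.30% at 32.5 CPM, and 5 IU/mL IL-2v on day 3 had it in 4.71% at 32.0 CPM. At 2000 UMIs per cell, 76.9% (75.6% to 78.1%) of 4693 cells grown with 50 IU/mL IL-2 had a Gzma UMI on day 10, against 23.8% (22.7% to 24.9%) with 5 IU/mL IL-2 and 19.9% (18.8% to 21.01%) with 50 IU/mL IL-2v. IL-2v at 5 IU/mL gave 0.947% (0.720% to 1.22%), and IL-15 gave 0.463% at 5 IU/mL and 0.404% at 50 IU/mL, whose intervals overlapped. Without thinning these 6 shares were 83.3%, 28.5%, 26.5%, 1.68%, 0.532% and 0.535%, in the same order. No cell type that lacks granzymes was present in numbers that would measure free RNA, so the background behind shares of cells with a single UMI was not measured. Higher limits were therefore read too. At 5 or more UMIs after thinning, the shares on day 10 were 50.4%, 10.1% and 4.97% in the 3 high libraries and 0.0621% to 0.180% in the other 3.

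Within the high libraries, Gzma counts differed widely from cell to cell. In unthinned cells, 52.0% of the cells grown with 50 IU/mL IL-2 to day 10 had 10 or more Gzma UMIs, and 377 cells had 100 or more. With 5 IU/mL IL-2, 10.6% of cells had 10 or more, and these cells held 89.1% of the Gzma UMIs of that library. In the 50 IU/mL IL-2v library, 6.58% of cells had 10 or more and held 75.3% of the UMIs. The highest single cells held 526, 384 and 501 UMIs in the 3 libraries. At 200 or more UMIs stood 1.24% of the cells under 50 IU/mL IL-2, 0.188% under 5 IU/mL IL-2 and 0.0196% under 50 IU/mL IL-2v, and no doublet caller was run. The 10% of cells with the most Gzma held 49.4% of its UMIs with 50 IU/mL IL-2, 88.0% under 5 IU/mL IL-2 and 85.4% under 50 IU/mL IL-2v.

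**Figure D2:**
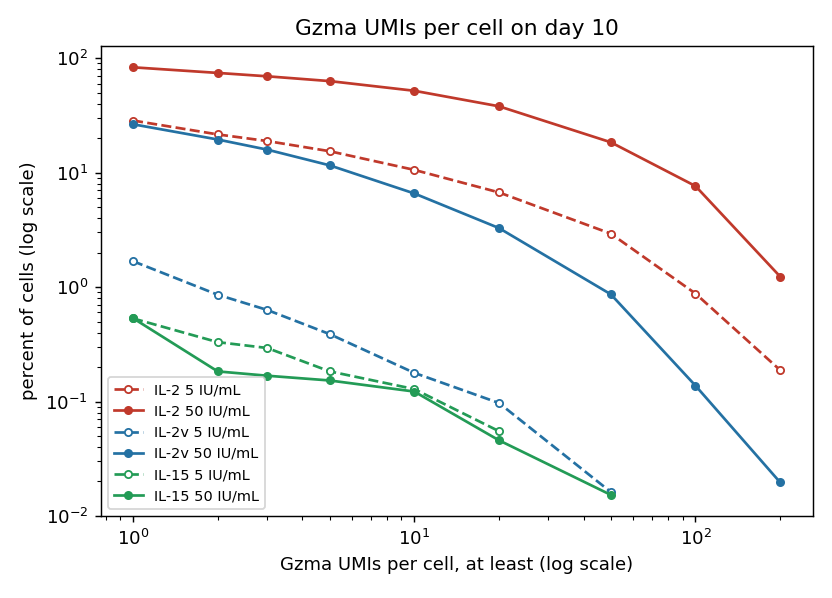
Percent of cells (y axis, log scale) with at least a given number of Gzma UMIs (x axis, log scale) in the 6 libraries of day 10, unthinned; lines are libraries, dashed with open symbols for 5 IU/mL. The 50 IU/mL IL-2 library has 52.0% of cells at 10 or more UMIs, against 10.6% with 5 IU/mL IL-2, 6.58% with 50 IU/mL IL-2v and 0.122% to 0.178% in the other 3 libraries.

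Between naive cells and day 3 without cytokine, Gzma differed more in its spread over cells than in its level. The naive library had Gzma in 1.30% (0.986% to 1.67%) of thinned cells, and unthinned positive cells held a mean of 5.94 UMIs. On day 3 without cytokine the share was 7.87% (7.08% to 8.72%), while positive cells held a mean of 2.09 UMIs. In naive cells the 23 cells with 10 or more UMIs, 0.481% of cells, held 70.3% of the Gzma UMIs, against 9.48% on day 3. The level was 1.84-fold higher on day 3 (1.67 to 2.03), a difference of 0.86 in log2(CPM + 1), under the limit of 1 used for a call. By that rule, 19.4% of the 6171 genes that reached 20 CPM were called between these 2 libraries. Gzma passed the limit when cells with markers of other lineages were left out (1.14), and the difference was 0.11 when the CPM of single cells was averaged in place of summed counts. From day 3 to day 5 without cytokine, Gzma was called lower, at 0.351 of its level (0.317 to 0.389), in a comparison in which 13.1% of 5785 genes were called. The share of positive cells on day 5, 1.23% (0.969% to 1.55%), overlapped that of naive cells.

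Cytokines were set against each other within day and dose, which gave 6 pairs. A call required one sign over every pair together with a median difference of log2(CPM + 1) no smaller than 1, and the pairs do not replicate each other. Gzma reached the 20 CPM filter in all 10 comparisons and was called in 2 of them, the lower level on day 5 without cytokine and the dose comparison of IL-2v. Gzmk and Gzmm never reached 20 CPM in any library, passed the filter in 0 of 10 comparisons and were not called. The comparisons of IL-2v and IL-15 with IL-2 share the IL-2 libraries, and their values are given side by side.

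Against IL-2, Gzma was lower with IL-2v in 5 of 6 pairs and with IL-15 in 5 of 6 pairs, and the exception was the same pair, 50 IU/mL on day 3. There the IL-2 library stood at 11.9 CPM, below IL-2v at 33.2 CPM and IL-15 at 35.1 CPM. The IL-2v differences were -0.72 and 1.40 on day 3, -1.50 and -1.94 on day 5 and -6.10 and -3.49 on day 10, at 5 and 50 IU/mL in turn. The gap at 5 IU/mL was thus larger at each later day. The IL-15 differences were -0.16 and 1.48, -1.28 and -3.20, and -6.86 and -9.39. The levels' intervals overlapped in the day 3 pair at 5 IU/mL, where the ratio was 0.892 (0.817 to 0.974). The medians were -1.72 for IL-2v and -2.24 for IL-15. Neither was called, with 1.32% of 5839 genes called for IL-2v and 2.19% of 5718 genes called for IL-15. Leaving out day 3 raised the count of all genes called in both comparisons, as given in the last section. Day 3 held the only Gzma pair of the opposite sign, so leaving it out left pairs of 1 sign, with calls and medians of -2.71 for IL-2v and -5.03 for IL-15. Without day 10 the medians were -1.11 and -0.72, with no call in either. Between IL-2v and IL-15, Gzma was higher with IL-2v in 3 of 6 pairs and lower in the others. The largest of these differences was 5.90, on day 10 at 50 IU/mL. The levels overlapped in the day 3 pair at 50 IU/mL, with a ratio of 0.946 (0.855 to 1.05). They also overlapped in the day 5 pair at 5 IU/mL, with a ratio of 0.850 (0.744 to 0.970). In this comparison 3.06% of 5810 genes were called.

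The dose differences were not alike under the 3 cytokines. With IL-2, 50 against 5 IU/mL gave a Gzma difference of -2.07 on day 3, 1.52 on day 5 and 2.26 on day 10, so the higher dose held less Gzma on day 3 and more at the later days. It was not called with all days (6.99% of 5879 genes were). Leaving out day 3, whose pair had the opposite sign, raised the count of all genes called and gave Gzma a call with a median of 1.89. Without day 10 the median turned to -0.28, with no call. IL-2v gave 0.05, 1.08 and 4.87, a median of 1.08 and a call, in a comparison in which 3.01% of 5913 genes were called. That call lay close to the limit and was lost under 6 alternatives, among them leaving out day 10 (0.57). IL-15 gave -0.43, -0.40 and -0.27, lower at 50 IU/mL on each day, with an overlap on day 10, and 1.05% of 5523 genes were called. From day 3 to day 5, Gzma was higher in 3 of 6 cytokine libraries, by 13.4-fold (11.6 to 15.6) at 50 IU/mL IL-2, 1.23-fold (1.12 to 1.36) at 50 IU/mL IL-2v and 1.03-fold (0.947 to 1.13, an interval that holds 1) at 5 IU/mL IL-2. From day 5 to day 10 it was higher in 3 of 6, by 33.4-fold (31.9 to 35.1) with 50 IU/mL IL-2, 20.2-fold (19.0 to 21.5) with 5 IU/mL IL-2 and 11.6-fold (10.8 to 12.4) with 50 IU/mL IL-2v. The calls of all genes were 3.04% of 5912 and 1.69% of 5676 in these 2 time comparisons.

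Gzmk, on the same chromosome as Gzma, was a rare RNA in every library, at 0.0613 to 11.6 CPM. It was highest on day 10 with IL-2, at 11.6 CPM (10.4 to 12.9) with 5 IU/mL and 10.1 CPM (8.93 to 11.3) with 50 IU/mL, and these 2 libraries overlapped although their Gzma levels were 4.81-fold apart. The next highest was the library without cytokine on day 5, at 6.58 CPM, followed by 5 IU/mL IL-15 on day 10 at 5.96 CPM and no cytokine on day 3 at 5.35 CPM, each overlapping the next. Naive cells held 3.57 CPM. At the other end, IL-2v at 5 IU/mL on day 10 held 2 Gzmk UMIs in all its 6181 cells, or 0.0613 CPM (0.00742 to 0.221). The lowest libraries on the same scale were 50 IU/mL IL-2 on day 3 at 0.363 CPM and 50 IU/mL IL-15 on day 10 at 0.408 CPM, which overlapped it and each other.

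By CPM, every library with cytokine on day 3 or 5 had less Gzmk than the matching library grown without cytokine. The CPM intervals overlapped in none of these 12 pairs on either day. The differences were -0.77 and -2.22 on day 3 with IL-2 at 5 and 50 IU/mL, and -0.82 and -1.35 with IL-2v. The 2 libraries without cytokine are shared by all 12 pairs. The share of thinned cells with Gzmk was also lower with cytokine in all 12, but the intervals of the shares overlapped in part of them. On day 3 these were every 5 IU/mL pair and 50 IU/mL IL-15. On day 5 they were both IL-2 doses and 50 IU/mL IL-2v. The 169 Gzmk UMIs without cytokine on day 5 lay in 86 unthinned cells. In that library 8 of 32 cells with markers of other lineages had Gzmk unthinned, against 1.28% of the rest. Against IL-2, Gzmk was lower with IL-2v in 5 of 6 pairs, 2 of them with overlapping intervals of the levels. The ratios of these 2 were 0.955 (0.638 to 1.43) at 5 IU/mL on day 3 and 0.572 (0.373 to 0.881) at 50 IU/mL on day 5. On day 10 the ratio was 0.00527 (0.000636 to 0.0192) at 5 IU/mL and 0.113 (0.0751 to 0.164) at 50 IU/mL. IL-15 was also lower in 5 of 6 pairs, though the 5 IU/mL pairs of days 3 and 5 had ratios of 0.997 and 0.881 with overlapping intervals, and its ratios on day 10 were 0.513 (0.418 to 0.626) and 0.0405 (0.0213 to 0.0704). The 50 IU/mL pair of day 3 was again the exception for both cytokines. Dose went in different directions on day 10: 50 IU/mL IL-15 held 0.0684 of the Gzmk of 5 IU/mL IL-15 (0.0355 to 0.121), while 50 IU/mL IL-2v held 1.14 CPM against 0.0613 CPM.

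Few cells had Gzmk. On day 10, 1.87% of thinned cells had a UMI under 5 IU/mL IL-2, as did 1.92% under 50 IU/mL IL-2, and 0 of 6123 cells with 5 IU/mL IL-2v did, which allows a share of up to 0.0490% of thinned cells at the floor of 3 counts. Unthinned, 2 cells of that library, 0.0324%, had a Gzmk UMI. With 5 IU/mL IL-15 the share was 0.890% (0.657% to 1.18%), and with 50 IU/mL IL-15 it was 0.0311% (0.00376% to 0.112%). In every library but the day 5 library without cytokine, the median positive cell held 1 UMI, and the highest held 10.

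Gzmm, on another chromosome, followed another pattern: it was high in naive cells, low after activation, and high again in 5 of 6 libraries of day 10. Naive cells held 11.6 CPM (10.1 to 13.2). On day 3 without cytokine the level was 1.17 CPM, 0.101 of the naive level (0.0644 to 0.152), and on day 5 it was 1.05 CPM. Libraries with cytokine held 0.363 to 2.29 CPM on day 3 and 0.349 to 3.36 CPM on day 5, all below the naive library. On day 10 the levels were 12.2 CPM with 50 IU/mL IL-2v, 10.8 CPM with 5 IU/mL IL-2, 9.13 CPM with 5 IU/mL IL-2v, 7.94 CPM with 50 IU/mL IL-15, 5.35 CPM with 50 IU/mL IL-2 and 1.07 CPM with 5 IU/mL IL-15. The intervals of neighbours in this order overlapped from 50 IU/mL IL-2v through the naive library to 50 IU/mL IL-15, and the last 2 libraries stood apart from those above them.

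From day 5 to day 10, Gzmm was higher in 5 of 6 cytokine libraries, without overlap in any of the 5. The ratio was 30.9 (14.8 to 77.4) with 5 IU/mL IL-2, from 7 UMIs on day 5, 5.15 (2.80 to 10.6) with 50 IU/mL IL-2, and 2.71 to 3.65 in the other 3. With 5 IU/mL IL-15 it was 0.583 (0.348 to 0.951), although the 2 levels' own intervals overlapped. IL-2v held more Gzmm than IL-15 in 6 of 6 pairs, with no overlap in 3 of them, and more than IL-2 in 5 of 6 pairs. IL-15 also held more Gzmm than IL-2 in 5 of 6 pairs. At 50 IU/mL on day 10 the 3 genes split: IL-2v had less Gzma and less Gzmk than IL-2, and 2.28-fold (1.87 to 2.79) more Gzmm. The same split was seen with IL-15 in that pair, whose ratios to IL-2 were 0.00131 for Gzma, 0.0405 for Gzmk and 1.48 (1.21 to 1.83) for Gzmm. IL-15 at 50 against 5 IU/mL gave a Gzmm difference of 0.26, 0.35 and 2.11 on days 3, 5 and 10, opposite in sign to Gzma and Gzmk in all 3 pairs. The intervals of the ratio held 1 for Gzmm on days 3 and 5 and for Gzmk on day 3. On day 10 the ratio was 7.40 (4.90 to 11.7) for Gzmm, against 0.0684 for Gzmk and 0.812 (0.668 to 0.987) for Gzma. That Gzma ratio rested on few cells. At 5 IU/mL IL-15 the 7 cells with 10 or more Gzma UMIs held 72.1% of them, and at 50 IU/mL 8 such cells held 82.1%. The shares of Gzma-positive cells overlapped between these doses.

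**Figure D3:**
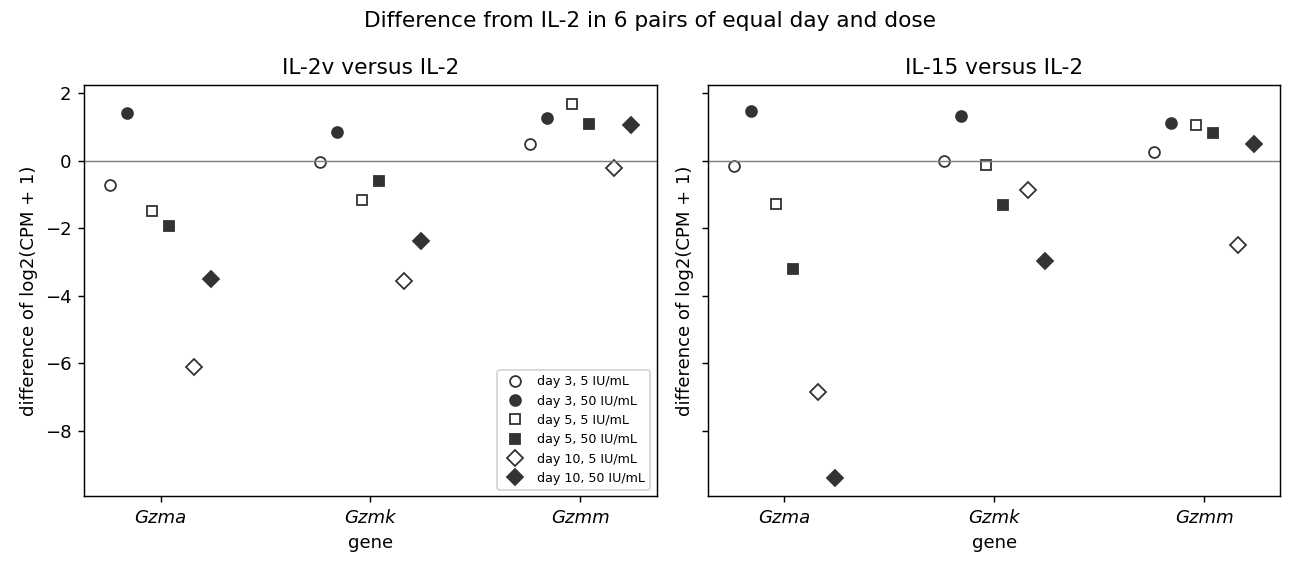
Difference of log2(CPM + 1) from the IL-2 library of equal day and dose (y axis) for the 3 genes (x axis), with IL-2v on the left and IL-15 on the right; each point is a pair of libraries, with circles for day 3, squares for day 5, diamonds for day 10 and open symbols for 5 IU/mL. Gzma reaches -6.10 with IL-2v and -9.39 with IL-15 on day 10, and Gzmm lies above 0 in 5 of 6 pairs in each panel.

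Gzmm was carried by few UMIs per cell. Thinned shares were 1.52% (1.18% to 1.92%) in naive cells and 1.26% to 2.16% in 5 of the 6 libraries of day 10, against 0.204% with 5 IU/mL IL-15. No library of day 3 or 5 exceeded 0.669%. The median positive cell held 1 UMI in all 21 libraries. Naive cells held the most in 1 cell, 12 UMIs.

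In naive cells, the list of 10 genes of memory-like CD8 T cells was compared between cells with and without Gzmm or Gzma. All 10 were seen more often in Gzmm-positive than in Gzmm-negative cells without overlap of the intervals. For Gzma this held for 4 of 10 (Ccl5, Cxcr3, Klrc1 and Klrk1), and the intervals of the other 6 overlapped. For Gzmm the count was far smaller on day 10. It was 0 of 10 at both IL-2v doses. Under IL-2 it was 1 of 10 at the lower dose and 2 of 10 at the higher dose. Under IL-15 it was 2 of 10 at the higher dose, and the lower dose was not compared. The split was not run over all genes, so whether these counts exceed those of other genes was not measured. Gzmk was in 29 naive cells, under the minimum of 50 for such a comparison. The 68 Gzmm-positive naive cells had Ccl5, a chemokine stored by memory CD8 T cells, in 91.2% (81.8% to 96.7%), against 8.54% (7.73% to 9.40%) of the Gzmm-negative cells. Ly6c2 was seen in 89.7% against 18.01%, and Il2rb, the beta chain that binds IL-2 and IL-15, in 50.0% against 12.8%. Eomes was seen in 13.2% against 4.22%, with no overlap of the intervals. The 58 Gzma-positive naive cells also had more Ccl5, in 48.3% (35.0% to 61.8%) against 9.29%. Outside that list, they had more often Zeb2, a factor of terminal effector cells, in 22.4% (12.5% to 35.3%) against 0.249%, and Gzmk, in 19.0% (9.87% to 31.4%) against 0.408%. The receptor gene Klrk1 was in 24.1% against 2.15%. Gzmm was in 5.17% of Gzma-positive and 1.47% of Gzma-negative naive cells, with overlapping intervals. Of 4471 naive cells, 136 had any of the 3 genes and 18 had 2 or more. Among the 57 naive cells with markers of other lineages, 14.0% had Gzma unthinned, against 1.97% of the others, and 12.3% had Gzmm against 2.29%. The part of these cells in the differences above was not tested. Cd8b1 was in 79.3% of Gzma-positive, 82.4% of Gzmm-positive and 78.1% of Gzma-negative naive cells.

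Gzmk was more often seen in cells that had Gzma. Of 19 libraries with at least 50 cells in each class, the share with Gzmk was higher in Gzma-positive than Gzma-negative cells without overlap in 10, and lower without overlap in 0. Under 5 IU/mL IL-2 on day 10 it was 5.73% (4.59% to 7.06%) against 0.669% (0.455% to 0.948%), and with 50 IU/mL IL-2 it was 2.47% (1.99% to 3.03%) against 0.0922%. Of the 90 Gzmk-positive cells of the latter, 98.9% also had Gzma, against 76.5% of its Gzmk-negative cells. For Gzmm the share was higher in Gzma-positive cells without overlap in 1 of 19 libraries.

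Across the same 19 libraries, 34 other genes were compared between Gzma-positive and Gzma-negative cells. Of these, 22 were more often seen in Gzma-positive cells without overlap in at least 1 library and less often in 0, 6 were the reverse (Id3, Tcf7, Bach2, Klf2, Cd7 and Cd8b1), and 6 went both ways in different libraries (Ccl5, Cxcr3, Klrd1, Klrk1, Mki67 and Top2a). The 34 genes were chosen and the split was not run over all genes, so whether these counts exceed those of other genes was not measured. Serpinb6b, a serpin that inhibits granzyme A, was more often seen in Gzma-positive cells without overlap in 14 of 19 libraries, and the regulator Id2 in 13 of 19. The stem-like factor Tcf7 was less often seen in 10 of 19 and the quiescence factor Klf2 in 8 of 19, with the opposite result in 0 for each. Perforin (Prf1) was more often seen in 7 of 19 and Eomes in 6 of 19, and in the other libraries the intervals of both overlapped. The cycling genes showed no common direction: Mki67 was more often seen in 3 libraries and less often in 2.

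The same genes were read along 3 ranges of Gzma count on day 10, at 0, 1 to 4 and 5 or more UMIs per thinned cell. These ranges have no natural border: with 5 IU/mL IL-2, 242 cells had 3 or 4 UMIs and 138 had 5 or 6, of 614 with 5 or more. In that library Tcf7 was in 34.2% (32.8% to 35.6%), 18.5% (15.9% to 21.3%) and 6.51% (4.69% to 8.77%) of cells from the lowest to the highest range. Klf2 was in 31.0%, 16.7% and 8.79%. Id2 went the other way, in 61.6%, 80.1% and 88.6% of cells, as did Gzmk, in 0.669%, 3.60% and 8.63%. With 50 IU/mL IL-2, Prf1 was in 31.3%, 43.2% and 60.7% of cells and Gzmc in 26.1%, 35.2% and 42.7%, while Gzmb was in over 98% of cells in every range. With 50 IU/mL IL-2v, Gzmc was in 16.7%, 34.3% and 43.9% and Prf1 in 8.42%, 16.6% and 24.8%.

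**Figure D4:**
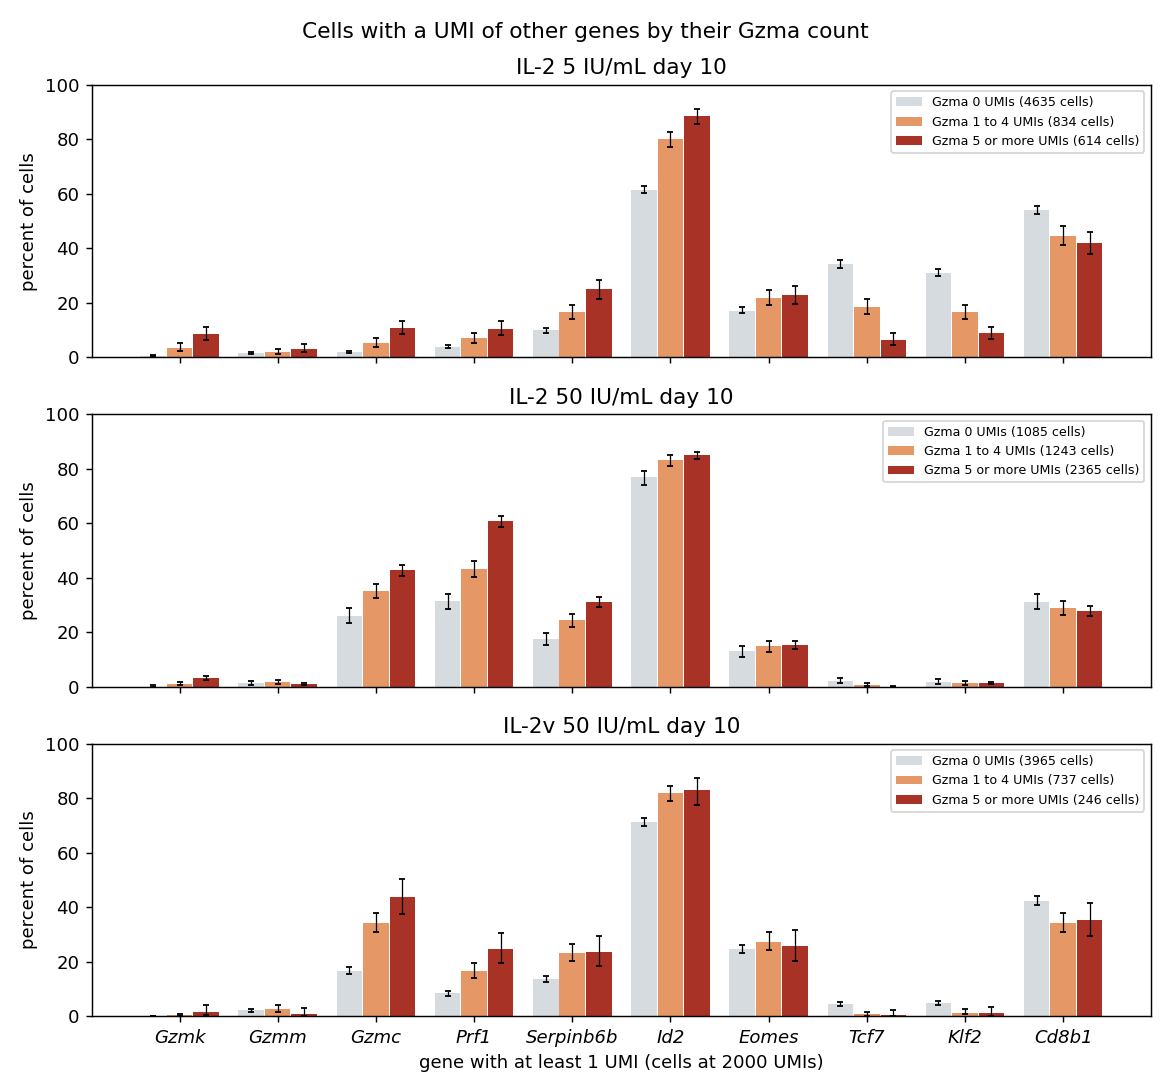
Percent of cells with at least 1 UMI of 10 genes (bars, y axis) in 3 libraries of day 10, by the Gzma count of the cell at 2000 UMIs; error bars are Clopper-Pearson 95% intervals. In the 5 IU/mL IL-2 library Tcf7 goes from 34.2% to 6.51% and Gzmk goes from 0.669% to 8.63% across the ranges, while in the 50 IU/mL IL-2 library Prf1 goes from 31.3% to 60.7%.

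The lists of related genes were read by their counts. On activation without cytokine, the 1 granzyme of the Gzmb cluster that passed the 20 CPM filter (Gzmb), 1 of 8 granule proteins (Stxbp2), 2 of 3 serpins, 4 of 10 transcription factors and 4 of 8 memory-like genes were called higher, and Prf1, Eomes, Klf2 and Ccl5 were called lower, with 19.4% of all genes called. The filter admits a gene that reaches 20 CPM in 1 arm alone, which favours genes that differ without forcing a call. The counts over these lists are therefore descriptions, and no list median is given. Of 7 granzymes of the Gzmb cluster, Gzmd, Gzme, Gzmf and Gzmg reached 20 CPM in 2 libraries, 50 IU/mL IL-2 and 50 IU/mL IL-2v on day 10, at 3602, 1752, 438 and 5667 CPM in the former and at 424, 199, 68.5 and 338 CPM in the latter, and Gzmn did so in none. Gzmc reached it in 6 libraries, all with IL-2 or IL-2v, and Gzmb stood at 912 and 7618 CPM with IL-2, 512 and 3143 CPM with IL-2v and 2.23 and 93.1 CPM with IL-15 on day 10 at 5 and 50 IU/mL. Gzmb was called lower with IL-15 than IL-2 (2.19% of all genes were called), and higher at 50 IU/mL of IL-2 (6.99%), of IL-2v (3.01%) and of IL-15 (1.05%). Of 9 granule proteins, 8 passed the filter against IL-2 and 0 were called with IL-2v or IL-15. Of all genes, 1.32% were called with IL-2v and 2.19% with IL-15, so a count of 0 among 8 does not set these genes apart. Prf1 was the granule gene called higher with dose under IL-2 (6.99% of all genes called) and IL-2v (3.01%), and higher on day 10 than day 5 (1.69%). Of 3 granzyme-binding serpins, Serpinb9, an inhibitor of granzyme B, was called lower with IL-15 than IL-2 (2.19% of all genes called). It was called higher at 50 IU/mL of IL-2 (6.99%) and of IL-2v (3.01%). Of 11 transcription factors, 9 passed the filter in the IL-2 dose comparison: Prdm1, which encodes the effector factor Blimp-1, and Bhlhe40 were called higher at 50 IU/mL, and Id3, Tcf7 and Klf2 lower. Of 10 memory-like genes, 8 passed the filter there and 6 were called lower (Ccl5, Cxcr3, Ly6c2, Klrd1, Klrk1 and Cd7), in the comparison in which 6.99% of all genes were called, 252 higher and 159 lower. In the IL-2v dose comparison 2 of 8 memory-like genes were called lower (Cxcr3 and Cd7) and 1 higher (Klrk1), with 3.01% of all genes called. In the IL-15 dose comparison 0 of 8 were called, with 1.05% of all genes called. With 50 against 5 IU/mL IL-15, Eomes and Bhlhe40 were called higher and Id3 lower. With 50 against 5 IU/mL IL-2v, Prdm1 and Id2 were called higher and Id3, Tcf7 and Klf2 lower (3.01% of all genes called). With IL-15 against IL-2, Klf2 was called higher and Prdm1 and Bhlhe40 lower (2.19%).

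Among 5494 genes whose mean level reached 20 CPM, the 5 most similar to Gzma over the 21 libraries (Pearson's r of log2(CPM + 1)) were Serpinb6a (0.92), a serpin, Pkp3 (0.92), a desmosome protein, Os9 (0.91), a lectin of protein quality control, Rnh1 (0.89), the ribonuclease inhibitor, and Pstpip1 (0.89), a cytoskeletal adaptor. All 5 were highest under 50 IU/mL IL-2 on day 10. Serpinb6a held 178 CPM there, 118 CPM with 5 IU/mL IL-2, 85.6 CPM with 50 IU/mL IL-2v and 19.1 to 25.3 CPM in the other 3 libraries of day 10. For Gzmk the 5 were Traf1 (0.80), an adaptor of TNF receptors, Psmd10 (0.77), Chmp1a (0.77), Gpsm3 (0.74) and Znrf1 (0.73), and Gzma itself stood at 0.59. For Gzmm they were Prkd3 (0.88), a protein kinase, Myl12a (0.86), a myosin light chain, Eomes (0.85), Fyn (0.82), a kinase of T cell receptor signalling, and Bin1 (0.82). The libraries share cytokines, days and doses, and these correlations are descriptions over 21 points.

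Eomes and Gzmm were followed side by side because Eomes is a T-box factor of the lists and the Gzmm list held it. Eomes stood at 156 CPM with 50 IU/mL IL-2v on day 10, the library with the most Gzmm, and at 14.2 CPM under 5 IU/mL IL-15 on day 10, where Gzmm was lowest of that day. Over the 18 libraries with cytokine r was 0.91. Naive cells stood apart, with 26.8 CPM of Eomes and a Gzmm level as high as those of day 10. Within libraries, Eomes was more often seen in Gzmm-positive cells without overlap in 2 of the 6 compared, and the intervals overlapped in 4. In each IL-2 and IL-2v library of day 10, 0 of 9 transcription factors differed without overlap between Gzmm-positive and Gzmm-negative cells. With 50 IU/mL IL-15 on day 10, 2 of 9 were more often seen in Gzmm-positive cells without overlap, and in naive cells 4 of 9 were. The split was not run over all genes, so whether these counts exceed those of other genes was not measured. Tbx21, which encodes T-bet, gave r = -0.13 with Gzmm over 21 libraries and 0.02 over the 18 with cytokine. Eomes with Gzma gave r = 0.48 over 21 libraries, and with Gzmk r = -0.12. On ranks (Spearman's rho), Eomes gave 0.07 with Gzma, -0.27 with Gzmk and 0.84 with Gzmm.

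**Figure D5:**
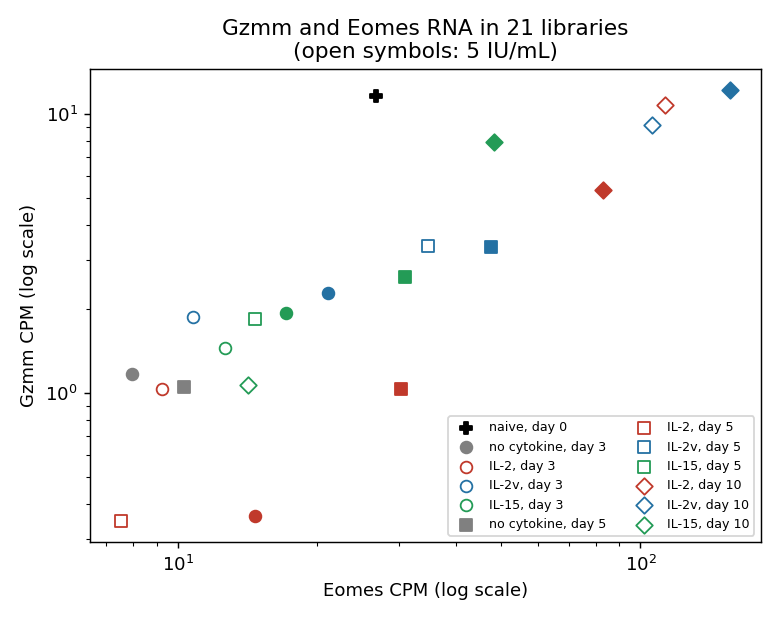
Gzmm (y axis) against Eomes (x axis) in 21 libraries, both as CPM on log axes; points are libraries, colours are cytokines, shapes are days and open symbols 5 IU/mL. The day 10 libraries with Eomes at 48.3 to 156 CPM hold 5.35 to 12.2 CPM of Gzmm, the 5 IU/mL IL-15 library of day 10 holds 14.2 and 1.07 CPM, and the naive library lies above the others at its Eomes level.

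NK and gamma delta T cells also express granzymes, so their markers were read in the same libraries. The 7 NK markers summed to 0.515 to 135 CPM and were highest with 50 IU/mL IL-2 on day 10, the library with the most Gzma. There Fcer1g alone held 113 CPM, while the defining NK receptor gene Ncr1 was at 0 in 20 of 21 libraries and at 0.0336 CPM in the other. Klrb1c, which encodes the NK receptor NK1.1, held 36.7 CPM under 50 IU/mL IL-2v, 22.0 CPM under 5 IU/mL IL-2 and 21.3 CPM under 50 IU/mL IL-2 on day 10, and at most 3.31 CPM in the other 3 libraries of that day. Cells with 2 or more NK markers made up 3.02% of cells under 50 IU/mL IL-2, 2.89% under 50 IU/mL IL-2v and 1.10% under 5 IU/mL IL-2 on day 10, the 3 libraries with the most Gzma, and at most 0.251% of any other library. Cells with 2 or more myeloid markers made up 3.79%, 1.38% and 1.38% of the same 3 libraries in that order, 0.165% to 0.404% of the other 3 libraries of day 10, and up to 1.20% on day 5. Fcer1g was more often seen in Gzma-positive cells without overlap in 7 of 19 libraries, Trdc in 3, and Cd8b1 less often in 6. These were 1 of 7 NK markers, 1 of 4 gamma delta markers and 1 of 6 T cell markers, and the others were not compared in this way. With 5 IU/mL IL-2 on day 10, Fcer1g was in 0.712%, 2.04% and 6.68% of cells at 0, 1 to 4 and 5 or more Gzma UMIs, Trdc in 29.6%, 36.3% and 37.6%, and Cd8b1 in 54.2%, 44.6% and 41.9%. The part of such cells in the Gzma differences was not tested beyond leaving out marked cells. The 4 gamma delta markers summed to 59.5 to 333 CPM, mostly Trdc, which was present in all libraries at 52.0 to 294 CPM. The 3 CD4 markers summed to at most 13.1 CPM, the 5 B cell markers to at most 17.9 CPM, the 5 myeloid markers to 65.5 to 130 CPM, and the 2 erythroid markers in the tables to at most 3.15 CPM. Cells with markers of other lineages made up 0.165% to 6.68% of a library, most with 50 IU/mL IL-2 on day 10. In that library 91.8% of the 330 such cells had Gzma unthinned, at a median of 7136.5 UMIs per cell, and 82.7% of the others did, at a median of 4950 UMIs. The gap was wider in the other 2 libraries rich in Gzma: 69.1% of 152 such cells against 27.6% with 5 IU/mL IL-2, at medians of 6119 and 4075 UMIs, and 53.5% of 215 against 25.3% with 50 IU/mL IL-2v, at medians of 7106 and 4859 UMIs. Leaving these cells out changed no call of the 3 genes except that of Gzma on activation given above, and the Gzma medians were then -1.75 for IL-2v against IL-2, -2.27 for IL-15 against IL-2 and 1.49 from day 5 to day 10, against 1.61 with all cells in the last. Cycling cells, those with a Mki67 or Top2a UMI, had Gzma less often than the others on day 10 with 50 IU/mL IL-2 (70.4% against 77.4%) and 50 IU/mL IL-2v (14.5% against 21.01%), and as often within counting error with 5 IU/mL IL-2 (25.0% against 23.6%).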

How the data were processed

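The deposited tables held UMI counts per gene and cell, 1 table for each of 21 libraries. The submitters' processing notes name Cell Ranger (version not given), Seurat 4.0.1 and 3.0.2 and the mm10 build, with no roles or parameters. Per the labels' protocols, cells were cultured after bead activation, whereas the extraction text describes sorting from tumours, and the source of that text was not resolved.

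Barcodes below 1000 UMIs or 500 genes, or above 10% mitochondrial UMIs, were dropped, 2 in all. No doublet caller was run, and cells over 2 times the median UMIs were left out as an alternative. Counts were summed per library, scaled to CPM by the library total and compared as differences of log2(CPM + 1), which understate the change of rare genes. Genes reaching a mean of 20 CPM in either arm could be called. Shares of cells were taken after each cell was thinned to 2000 UMIs, which left out 57 to 393 shallower cells per library. Intervals are exact at 95%, and floors are 3 counts. TMM scaling used edgeR 4.0.16 in R 4.3.3, and the rest used Python 3.11.15, numpy 2.4.6 and scipy 1.17.1. Counts for IL-2v versus IL-2 were simulated from means shared by both arms, with Poisson noise alone and the same change in every pair. With 5619 genes past that filter, 99.5% of genes changed 4-fold and 99.5% of genes changed 2.5-fold were called. The simulation held no difference between cultures and no pairs of mixed sign, so it checks the computation and does not give the sensitivity in the real data. The genes named are the 3 granzymes, the genes of the lists and the 5 genes most correlated with each granzyme. The members and the lists were chosen with earlier results of these data known.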

Additional observations from a re-analysis of the deposited data

Results flagged for a closer look

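Gzma from day 5 to day 10 went opposite ways under IL-2 and IL-15. The differences of log2(CPM + 1) were 4.31 and 5.05 with IL-2 at 5 and 50 IU/mL (median 4.68) and -1.27 and -1.13 with IL-15 (median -1.20). Gzmk over the same days went opposite ways under IL-2 and IL-2v, with 1.83 and 1.13 for IL-2 (median 1.48) and -0.59 and -0.64 for IL-2v (median -0.61). Each value is a single pair of libraries, the 5 IU/mL IL-2v value for Gzmk rests on 2 UMIs on day 10, and neither difference between cytokines was tested.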

How the results depend on the processing

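Over 11 kinds of alternative, with each day left out in turn, 379 of 390 values of the 3 genes kept their side of the limit for a call, and no called value changed sign. The Gzma dose difference of IL-2v (1.08) was no longer called at most 5% mitochondrial UMIs (0.72), without cells holding Mki67 or Top2a UMIs (1.57, with mixed signs), with TMM scaling (0.91), with totals without ribosomal protein and mitochondrial genes (0.98), with a pseudocount of 10 CPM (0.82) and without day 10 (0.57). New calls were Gzma on activation without cells with markers of other lineages (1.14), Gzmm on activation with no filter on low values (-2.54) and, without day 3, Gzma for IL-2v against IL-2 (-2.71), IL-15 against IL-2 (-5.03) and the IL-2 dose (1.89). Medians that were not called changed sign in 11 cases, among them the Gzma dose difference of IL-2 without day 10 (-0.28). The cause was not tested. TMM scaling moved the median of all genes by 0.11 from day 3 to 5 without cytokine, by -0.12 for the IL-2v dose, and by 0.10 and 0.14 in the time comparisons with cytokine.

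Counts of all genes called moved by over 1.5 times in 28 of 130 cases. As reported they were 1197 on activation, 757 without cytokine over time, 77 for IL-2v against IL-2, 125 for IL-15 against IL-2, 178 for IL-2v against IL-15, 411, 178 and 58 for the doses of IL-2, IL-2v and IL-15, and 180 and 96 for days 5 and 10. A pseudocount of 10 CPM gave 779 on activation, 16, 72 and 66 between cytokines, 260, 99 and 28 for the doses and 76 and 52 over time. No filter gave 2621 and 1663 without cytokine, 240 and 329 for IL-15 against IL-2 and IL-2v against IL-15, 851, 423 and 135 for the doses and 354 and 260 over time. Leaving out day 3 gave 224, 266 and 445 between cytokines and 664, 305 and 182 for the doses. Leaving out day 10 gave 44 for IL-2v against IL-2 and 29 for the IL-15 dose. Cells without a cycling gene gave 477 without cytokine over time and 45 for IL-2v against IL-2.

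Shares of cells were higher without thinning in 63 of 63 cases. Ranking by Spearman's rho kept 2 of the 5 most similar genes of each granzyme. Libraries were matched by day and dose, and no paired or additive model was fitted over them. Gzmk and Gzmm rested on 1662 and 2102 UMIs in all 21 libraries, so differences among their low levels were often not detectable at this depth.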
